A study of Mus musculus with 8 samples.

Results

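The 9 genes Ms4a1, Cd79a, Cd79b, Cd22, Cr2, Pax5, Blk, Fcer2a and Bank1 encode surface proteins, signalling proteins and a transcription factor of the B cell lineage. They were taken by symbol from a table of 16130 genes, and all 9 were found. RNA came from the distal colon of mice whose genotype is given as Tcf4Het/+ ApcMin/+, in both groups alike, so no animal without these alleles entered the comparison. ApcMin is a truncating allele of the tumour suppressor gene Apc, and mice that carry it grow intestinal adenomas. One group was kept for 4 months in conventional, non-enriched housing (NE, n = 4 libraries) and the other for the same time in enriched housing (EE, n = 4 libraries). The labels give no age at sampling, no sex and no treatment beyond housing, and they do not say whether a library is 1 animal or whether visible lymphoid tissue or tumour was kept in or removed. The p-values below therefore measure the spread between these libraries.

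B cells recognise antigen through a membrane immunoglobulin that signals by way of the CD79A and CD79B chains. CR2 lowers the threshold of that signal, and CD22 raises it. In the colon, resting B cells are concentrated in lymphoid patches and in isolated lymphoid follicles, whereas the antibody-secreting plasma cells that descend from them are spread through the lamina propria and have switched off PAX5 and most B cell surface genes. The number of follicles caught in a piece of colon can thus vary from sample to sample. In RNA from whole tissue, fewer cells of a type and less RNA per cell cannot be told apart.

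All 7 genes that could later be tested, among them Cd79a, Cr2 and Bank1, were lowest in EE 4 and next lowest in EE 1. Pax5, which did not follow that order, encodes the lineage factor. The stretches before the start of Cd79a, Cr2, Bank1 and Pax5, 4 of the 9 genes, are shown. They were copied from RefSeq windows on GRCm38.p6, cut back to the bases that lie before any gene model of the gene in RefSeq or GENCODE M21, and are written 5′ to 3′ in the direction of transcription. Capitals mark matches to AGGAAG, the core bound by ETS factors such as PU.1, to CCCNNGGG, the core of the EBF1 palindrome, to TATAAA, or to ATGCAAAT, the octamer bound by OCT factors.
Cd79a (chr7:24897247-24897380, plus strand): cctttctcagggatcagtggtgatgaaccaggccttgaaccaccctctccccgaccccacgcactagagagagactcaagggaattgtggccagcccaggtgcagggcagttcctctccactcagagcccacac
Cr2 (chr1:195176881-195176969, minus strand): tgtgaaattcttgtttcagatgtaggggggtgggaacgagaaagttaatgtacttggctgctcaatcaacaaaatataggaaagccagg
Bank1 (chr3:136326142-136326316, minus strand): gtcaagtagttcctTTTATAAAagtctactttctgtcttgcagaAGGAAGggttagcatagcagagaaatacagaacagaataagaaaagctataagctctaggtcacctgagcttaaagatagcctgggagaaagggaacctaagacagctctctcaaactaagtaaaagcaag
Pax5 (chr4:44710695-44710944, minus strand): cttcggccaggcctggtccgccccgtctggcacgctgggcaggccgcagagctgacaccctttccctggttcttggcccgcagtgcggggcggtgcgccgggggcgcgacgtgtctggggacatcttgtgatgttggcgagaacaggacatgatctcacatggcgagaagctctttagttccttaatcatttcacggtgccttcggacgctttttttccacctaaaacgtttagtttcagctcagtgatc
RefSeq windows were found for 6 of the 9 genes, with 8 windows in all since Fcer2a has several starts. Within the whole 250 bases before each start and on both strands, AGGAAG was found in 4 of the 8 windows against 29.5% of 32851 mouse windows. CCCNNGGG was found in 2 against 11.8%, TATAAA in 2 against 12.4%, and ATGCAAAT in 0 against 1.60%. In Bank1 the 2 matches to TATAAA overlap each other on opposite strands. A match to AGGAAG in Cd79a and a match to CCCNNGGG in Bank1 lie in bases that were cut away and are not printed. The stretch of Fcer2a, with matches to AGGAAG and TATAAA, is not printed either. Only exact letters were sought, so looser forms of these sites are not marked. These are letter matches in short windows, and many of the windows of other genes hold them too.

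All 9 genes were measured at low levels, with 0 to 103 counts per gene and library in libraries of 4735764 to 10586851 counts. Levels are given as CPM, read counts scaled to the size of each library. The spread between libraries and the counting error of small counts both limit them. Most of the 9 genes were lower in EE 1, EE 3 and EE 4 than in any NE library, while EE 2 lay within or above the NE range in 8 of the 9. By value alone, the count of genes below the whole NE range was 8 of 9 in EE 1, 1 of 9 in EE 2, 6 of 9 in EE 3 and 9 of 9 in EE 4. Among all 14311 genes tested, the shares below every NE library were 26.1%, 16.8%, 31% and 36.4% for EE 1 to EE 4, beside 7, 1, 5 and 7 of the 7 B cell genes tested. Over the 2 groups of 4 no gene passed the test across all genes.

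The 2 chains of the antigen receptor complex were read most directly by Cd79b (chromosome 11, 106311341 to 106314762 on GRCm38, minus strand). Cd79b stood at 10.9, 8.03, 8.26 and 17.1 CPM in NE 1 to NE 4 and at 3.19, 14.5, 6.80 and 1.27 CPM for EE 1 to EE 4. EE 1, EE 3 and EE 4 lay below every NE library, and EE 2 lay inside the NE range. The fitted difference was a log2 fold change, EE minus NE, of −0.78 with a standard error of 0.57 (edgeR quasi-likelihood test, Benjamini-Hochberg adjusted p = 0.612 over 14311 genes). Its partner Cd79a (chromosome 7, 24897381 to 24902197, plus strand) stood at 4.42, 2.15, 2.82 and 2.82 CPM across NE and at 1.06, 3.25, 2.57 and 0.634 CPM across EE. EE 1 and EE 4 lay below the NE range and EE 2 and EE 3 within it, and the log2 fold change was −0.69 (SE 0.47, edgeR adjusted p = 0.594).

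Among the surface receptors that tune or accompany that signal, Cd22 separated the groups. Cd22 encodes a lectin that binds sialic acid and inhibits antigen receptor signalling (chromosome 7, 30865402 to 30880342, minus strand). It stood at 4.74, 3.73, 4.69 and 5.30 CPM in NE 1 to NE 4 and at 1.91, 2.68, 2.87 and 0.793 CPM for EE 1 to EE 4, so that every EE library was below every NE library. The NE mean was 4.62 ± 0.654 CPM and the EE mean 2.06 ± 0.943 CPM (SD, n = 4 per group). The log2 fold change was −1.16 (SE 0.36), with an unadjusted p of 0.00895 in the edgeR quasi-likelihood test. It did not pass over all genes (edgeR adjusted p = 0.520). Of the 7 genes that could be tested Cd22 was the only one whose groups did not overlap, and 2.02% of all 14311 genes tested had groups that did not overlap with EE lower. An antisense transcript on the opposite strand, Gm29439, overlaps 17 annotated exons of Cd22. No source used here says whether counting used the strand, and reads from the 2 genes may be joined.

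Cr2, the complement receptor that works beside the antigen receptor and that follicular dendritic cells also carry (chromosome 1, 195136811 to 195176716, minus strand), stood at 5.21, 3.01, 5.35 and 8.62 CPM across NE and at 2.55, 5.93, 2.72 and 0.793 CPM across EE. EE 2 was above 3 of the 4 NE libraries and the other 3 EE libraries were below all of them. The log2 fold change was −0.90 (SE 0.51, edgeR adjusted p = 0.551). Ms4a1, which encodes the B cell surface protein CD20 (chromosome 19, 11249675 to 11266241, minus strand), showed a like arrangement, with 10.3, 5.88, 7.70 and 16.7 CPM across NE and 2.97, 13.8, 4.38 and 2.38 CPM across EE. The log2 fold change of Ms4a1 was −0.79 (SE 0.54, edgeR adjusted p = 0.596). Fcer2a, the low-affinity IgE receptor CD23 of resting follicular B cells (chromosome 8, 3681737 to 3694175, minus strand), had only 1 to 19 counts per library. Its levels were 1.42, 1.003, 1.78 and 0.995 CPM across NE and 0.212, 1.72, 0.604 and 0.951 CPM across EE, and the low-count filter left it out of the test.

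The genes of cytoplasmic signalling proteins showed a similar arrangement. Bank1, a B cell scaffold protein that links the antigen receptor to calcium release (chromosome 3, 136053363 to 136326066, minus strand), stood at 6.32, 2.87, 5.72 and 5.80 CPM across NE and at 2.34, 6.89, 2.42 and 0.476 CPM across EE. EE 2 was the highest of the 8 libraries, while EE 1, EE 3 and EE 4 were the 3 lowest, and the log2 fold change was −0.79 (SE 0.57, edgeR adjusted p = 0.609). Blk, a Src family kinase of B cells that some T cells also express (chromosome 14, 63372836 to 63417037, minus strand), stood at 2.9999, 1.15, 3.57 and 3.65 CPM across NE and at 1.06, 3.64, 3.32 and 0.159 CPM across EE. EE 2 and EE 3 lay inside the NE range for Blk, EE 1 and EE 4 lay below it, and the log2 fold change was −0.47 (SE 0.64, edgeR adjusted p = 0.779).

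Pax5, the transcription factor that commits cells to the B lineage and holds them there (chromosome 4, 44524757 to 44710487, minus strand), was the scarcest. It had 11, 1, 7 and 7 counts in NE 1 to NE 4 and 4, 4, 5 and 0 counts in EE 1 to EE 4. That corresponds to 0.143 to 1.74 CPM across NE and to 0.755 to 0.849 CPM in EE 1 to EE 3, inside the NE range. The 0 counts of EE 4 allow a level of up to 0.476 CPM (3 counts), which does not lie below the 0.143 CPM of NE 2. Pax5 was left out by the low-count filter. In a fit without that filter the log2 fold changes were −0.62 (SE 0.78) for Pax5 and −0.58 (SE 0.51) for Fcer2a, with edgeR adjusted p of 0.767 and 0.669.

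**Figure D1:**
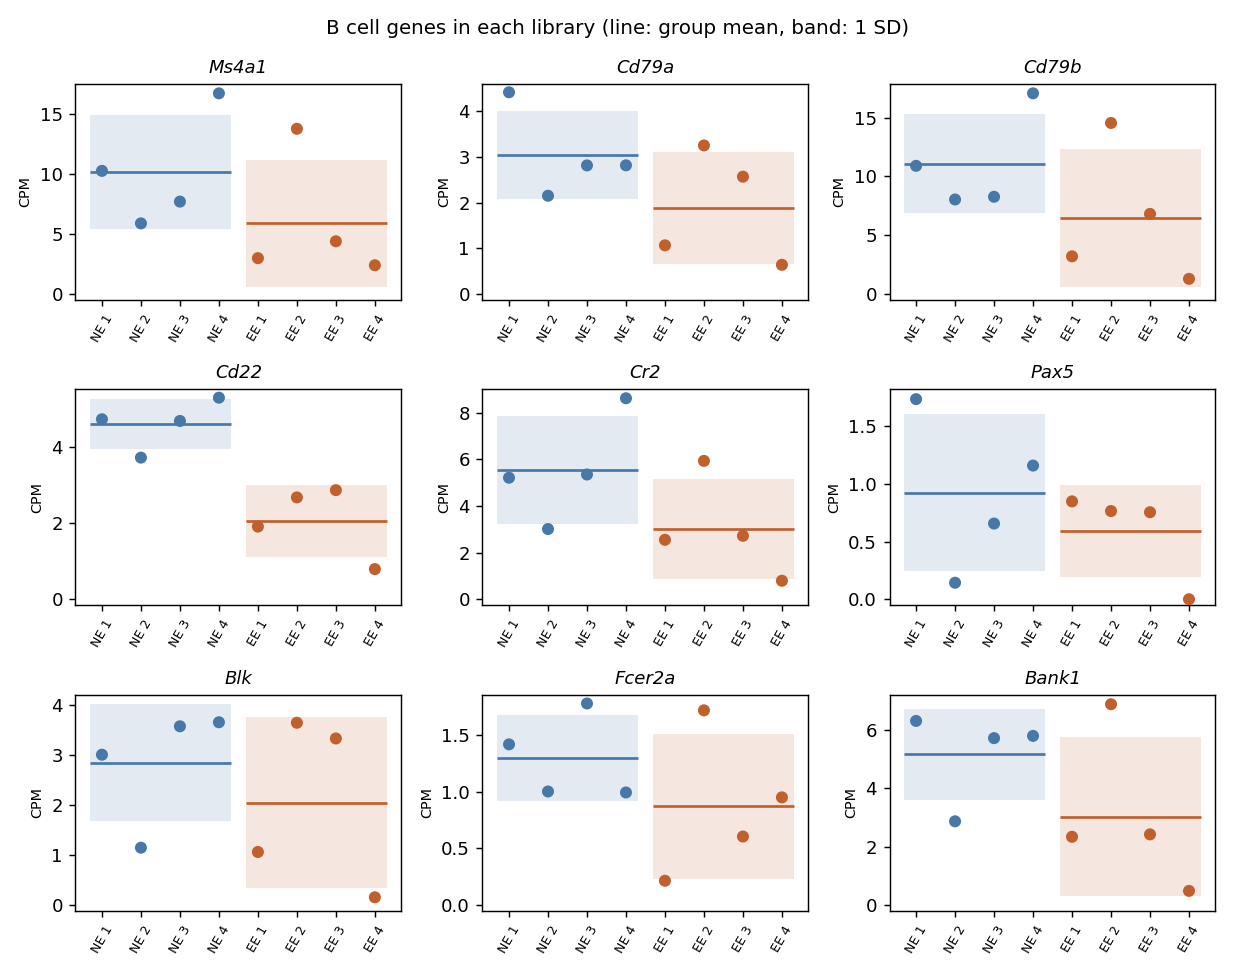
Each panel plots the level of 1 gene in CPM (y axis, linear) in the 8 libraries (x axis), NE in blue and EE in orange, with a line at the group mean and a band of 1 SD. Library EE 2 stands within or above the NE range in every panel but Cd22, where its 2.68 CPM is below the lowest NE value of 3.73 CPM.

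No gene of the 9 passed the test. Of all genes in the test, 0 of 14311 genes (0%) had an edgeR adjusted p under 0.05, with 1357 (9.48%) at an unadjusted p under 0.05 in either direction, while DESeq2 called 16 genes (0.103%), none of them among the 9, and limma-voom called 0. All 7 B cell genes that could be tested had a negative log2 fold change, from −1.16 to −0.47 with a median of −0.79, where 49.7% of all genes were below 0 and the median of all genes was 0.00209. These 7 genes were read from the same libraries and largely mark one lineage, so their shared sign is not 7 separate observations. At an unadjusted p under 0.05 in the lower direction there was 1 of the 7, Cd22, beside 3.75% of all genes.

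The size of the difference rested on which EE library was counted. Without EE 4 the median log2 fold change of the 7 genes was −0.42, with Blk at −0.06 and Cd22 at −0.86. Without EE 2 it was −1.46, with Ms4a1 at −1.62 and Bank1 at −1.58, and 5 of the 7 genes then had an unadjusted p under 0.05 beside 9.15% of all genes in the lower direction. The lowest edgeR adjusted p among the B cell genes was then 0.124, for Ms4a1. All 7 stayed negative when any 1 library was left out.

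**Figure D2:**
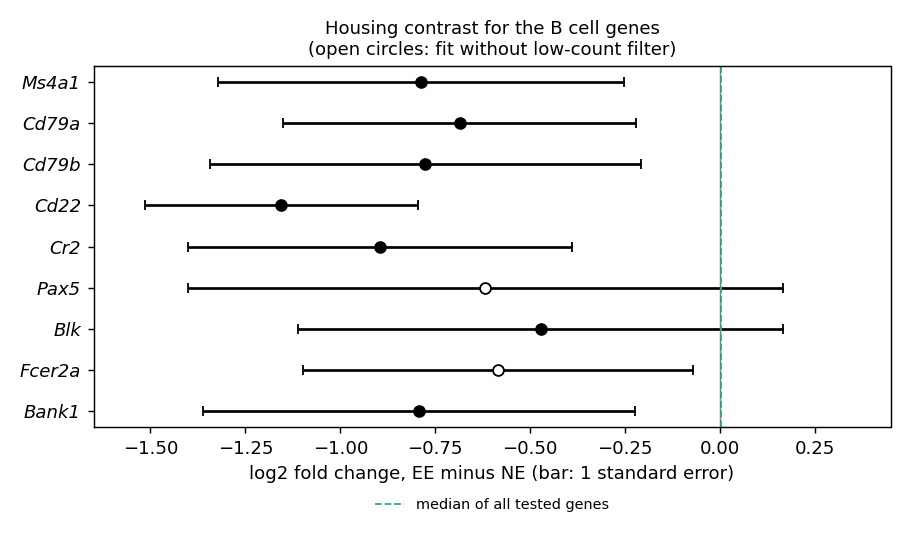
The x axis is the log2 fold change, EE minus NE, with bars of 1 standard error, for each of the 9 genes (y axis). Filled circles are the 7 genes tested and open circles Pax5 and Fcer2a in the fit without a low-count filter, and the dashed line is the median of all tested genes at 0.00209. Every point lies below 0, and Cd22 at −1.16 lies farthest from it.

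In the authors' deposited table the 9 genes had log2 fold changes of 0.17 (Pax5) to 0.60 (Cd79b), with adjusted p-values of 0.221 (Cd22) to 0.946 (Pax5). The header of that table does not name the numerator. For all 9 the sign was opposite to EE minus NE as computed from the count columns, as it was for 97.8% of the genes tested. Opposite signs arise if the authors divided NE by EE, or if the group names on the count columns were exchanged, and the files do not tell these apart. EE and NE here mean the libraries whose columns carry those names, and every direction given holds only if the names are right.

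Summed over the 9 genes, the libraries formed an order that crossed the groups. The sum was 62.2 CPM in NE 4 (95% exact Poisson interval 56.0 to 68.8), 53.2 CPM in EE 2 (47.1 to 59.8), 48.0 CPM in NE 1 (42.8 to 53.7) and 40.5 CPM in NE 3 (36.8 to 44.6). It was 27.9 CPM in NE 2 (24.2 to 32.2), 26.4 CPM in EE 3 (22.7 to 30.7), 16.1 CPM in EE 1 (12.7 to 20.2) and 7.45 CPM in EE 4 (5.48 to 9.91). The intervals cover counting error only. NE 2 and EE 3 were indistinguishable by counting error, and EE 1 and EE 4 were below both. The spread inside each group was wide: NE 2 and NE 4, both conventional, did not overlap in their intervals, and neither did EE 2 and EE 4. Relative to the summed counts of 10 epithelial genes such as Epcam, Cdh1 and Vil1, the 9 genes gave 3.90, 2.71, 3.88 and 6.77 counts per 1000 epithelial counts in NE 1 to NE 4 and 1.34, 5.02, 3.32 and 0.827 in EE 1 to EE 4. Against this denominator EE 3 moved into the NE range, while EE 1 and EE 4 stayed below it. The denominator was itself lowest in EE 3, where the epithelial genes summed to 7954 CPM, against 9015 to 12314 CPM in the other libraries.

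The shares of Ms4a1, Cd79b, Cr2 and Bank1 in the summed counts of the 9 genes varied less than the sum itself. Ms4a1 made up 19.0% to 26.9% of the summed counts in the NE libraries and 16.6% to 31.9% in the EE libraries, and Cd79b 20.4% to 28.7% and 17.0% to 27.3%. Cr2 made up 10.8% to 13.9% in NE and 10.3% to 15.8% in EE, and Bank1 9.33% to 14.1% and 6.38% to 14.5%. The share of Cd22 was lowest in EE 2, at 5.04% (14 of 278 counts, 95% exact Clopper-Pearson interval 2.78% to 8.31%), against 8.53% to 13.3% in the NE libraries and 10.64% to 11.8% in the other EE libraries. That interval overlapped those of NE 1 (6.76% to 13.8%), of NE 4 (5.91% to 11.8%) and of EE 1, EE 3 and EE 4, but not those of NE 2 (8.90% to 18.9%) and NE 3 (8.71% to 14.97%). Blk had its highest share in EE 3, at 12.6% (8.05% to 18.4%), and that interval did not overlap the one of NE 2 (1.79% to 7.92%). In EE 4, with 47 counts over the 9 genes, Fcer2a held 12.8% (4.83% to 25.7%), against 1.32% to 4.40% in the other 7 libraries. The root mean square difference of each tested gene's centred log2 CPM from the mean of the other 6 ran from 0.22 for Cr2 to 0.45 for Blk, and was 0.41 for Cd22.

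Per length of annotated exon, Cd79b was the highest of the 9 genes, with a mean of 6.12 ± 3.73 CPM per kilobase (SD over the 8 libraries). It was above Cd79a (1.69 ± 0.825) in 8 of 8 libraries, although the 2 proteins pair with each other, and the ratio of Cd79b to Cd79a per kilobase ran from 2.04 in EE 4 to 6.17 in NE 4. After these came Ms4a1 (1.29 ± 0.841), Blk (0.905 ± 0.525), Cd22 (0.662 ± 0.309), Bank1 (0.548 ± 0.315), Cr2 (0.527 ± 0.305), Fcer2a (0.351 ± 0.174) and Pax5 (0.0857 ± 0.0617). Bank1 and Cr2 did not differ in order, with Bank1 higher in 4 of 8 libraries. The other neighbours kept their order in 6 to 8 of the libraries, and the ranges over libraries overlapped for every pair of neighbours. The lengths join all exons of GENCODE M21, and no source used here names the exons that the authors counted.

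Other genes of the B lineage also stood mostly at lower values in EE. Of 19 tested genes in a list of further B cell genes, 15 had a negative log2 fold change and 4 a positive one, with a median of −0.60, and 0 passed the test. Ebf1, the factor that acts before Pax5 in B cell development, was at 7.33 CPM across NE and 4.51 CPM across EE (log2 fold change −0.71, SE 0.39). By library Ebf1 stood at 5.53, 9.46, 6.19 and 8.12 CPM across NE and 4.03, 8.04, 4.23 and 1.74 CPM across EE. Its highest value was in NE 2, the NE library with the lowest sum over the 9 B cell genes (27.9 CPM). Summed fat cell genes (180 CPM) and smooth muscle genes (6212 CPM) were also highest in NE 2 and lowest in EE 4 (9.99 and 731 CPM). Which cells the reads of Ebf1 came from was not tested. Ikzf3, which encodes the lymphoid factor Aiolos, stood at 8.9997, 7.02, 6.29 and 8.12 CPM across NE and 4.67, 6.32, 6.19 and 2.85 CPM across EE. Spib, an ETS factor of B cells that M cells and tuft cells of the epithelium also use, stood at 8.68, 6.74, 5.26 and 6.13 CPM across NE and 4.67, 6.51, 1.51 and 2.06 CPM across EE. The follicle homing receptor Cxcr5 was at 2.68 ± 0.631 and 1.56 ± 0.846 CPM. In each of these 3 genes EE 2, and in Cxcr5 also EE 3, reached into the NE range. Positive values were those of Cd40, Ralgps2, Fcmr and Bach2, all of them 0.16 or less. The list median was −0.21, with 13 of 19 negative, when EE 4 was left out.

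The wider machinery of antigen receptor signalling, much of which other leukocytes and epithelial cells share, had a median nearer to 0. Of 22 tested genes 15 were negative and 7 positive, with a median of −0.12 (−0.06 with EE 4 left out), and 0 passed. Rasgrp3, an exchange factor that couples the B cell receptor to Ras and is also found in endothelium, was at 7.58, 9.32, 7.32 and 7.13 CPM across NE and 4.03, 4.98, 4.23 and 3.65 CPM across EE. The EE libraries were all below the NE libraries for Rasgrp3 (log2 fold change −0.89, SE 0.21, edgeR adjusted p = 0.520), and the value was −0.82 without EE 4. Malt1, a partner in the complex that links antigen receptors to NF-kB, was at a higher value in EE, with 41.9 ± 4.40 CPM across NE and 53.0 ± 2.47 CPM across EE (edgeR adjusted p = 0.520). The groups did not overlap for Malt1 either, with every EE library above every NE library. Among all 14311 genes tested, 289 had groups that did not overlap with EE lower and 411 with EE higher.

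Genes that mark organised follicles were also read. Of 12 tested genes of lymphoid tissue organization 11 were negative and 1 positive (median −0.34, 0 passed), and with EE 4 left out 10 were negative (median −0.12). Ccl21a, a chemokine of T cell zones and lymphatic vessels, stood at 17.2, 12.6, 14.7 and 15.1 CPM across NE and 7.43, 12.8, 11.6 and 3.81 CPM across EE (log2 fold change −0.74, SE 0.32, edgeR adjusted p = 0.520). Tnfsf11, the cytokine RANKL that induces M cells over follicles, was at 3.37 ± 1.82 and 1.77 ± 1.27 CPM. Cxcl13, the chemokine that draws B cells into follicles, stood at 12.6, 8.46, 11.3 and 16.6 CPM across NE and 13.6, 10.7, 7.55 and 4.76 CPM across EE, so that EE 1, low in B cell genes, was not low in Cxcl13. Germinal centre genes, expressed where B cells divide and mutate their receptors, had 5 of 8 tested genes negative and a median of −0.19, and 0 passed. Fas was at 19.7 ± 1.136 CPM across NE and 14.8 ± 4.38 CPM across EE, Mybl1 at 5.66 ± 0.153 and 6.67 ± 1.42 CPM, and Gna13 at 187 ± 25.4 and 163 ± 41.7 CPM. These 3 genes are also expressed outside germinal centres. Mef2b, a more specific marker of germinal centre B cells, was not analysed here.

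The T cell list, the nearest lymphoid neighbour, had 10 of 11 tested genes negative and a median of −0.48, and 0 passed. With EE 4 left out the median was −0.20, with 10 of 13 negative. Cd8a stood at 8.21, 4.73, 6.38 and 4.48 CPM across NE and 2.34, 3.64, 2.72 and 1.59 CPM across EE. Cd4 was at 4.32 ± 0.456 and 2.52 ± 1.33 CPM. The groups did not overlap for Cd8a, and EE 2 was below the NE range there too. Set against the summed counts of the 14 T cell genes, the 9 B cell genes made up 47.1%, 38.4%, 44.4% and 48.9% of both sums together in NE 1 to NE 4. The share was 35.8%, 50.2%, 32.2% and 22.6% for EE 1 to EE 4 (95% exact Clopper-Pearson intervals 29.4% to 42.7%, 45.9% to 54.4%, 28.3% to 36.3% and 17.1% to 28.9%). In EE 3 the T cell sum of 55.8 CPM was inside the NE range of 44.9 to 65.0 CPM. The B cell sum there, 26.4 CPM, lay below the B cell NE range of 27.9 to 62.2 CPM. It was within counting error of the 27.9 CPM of NE 2. In EE 4 both sums were low, and the B cell share was the lowest of the 8 libraries. The largest parts of the T cell sum of EE 4 (25.5 CPM) were Lck (7.93 CPM) and Zap70 (7.29 CPM). Zap70 was there above every NE library. Cd3e, Cd3d, Cd3g and Cd247 stood at 0.634 to 0.951 CPM in EE 4, each below its NE range. The B cell share thus depends on which T cell genes are summed. The groups overlapped in this share, since EE 2 was above every NE library.

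**Figure D3:**
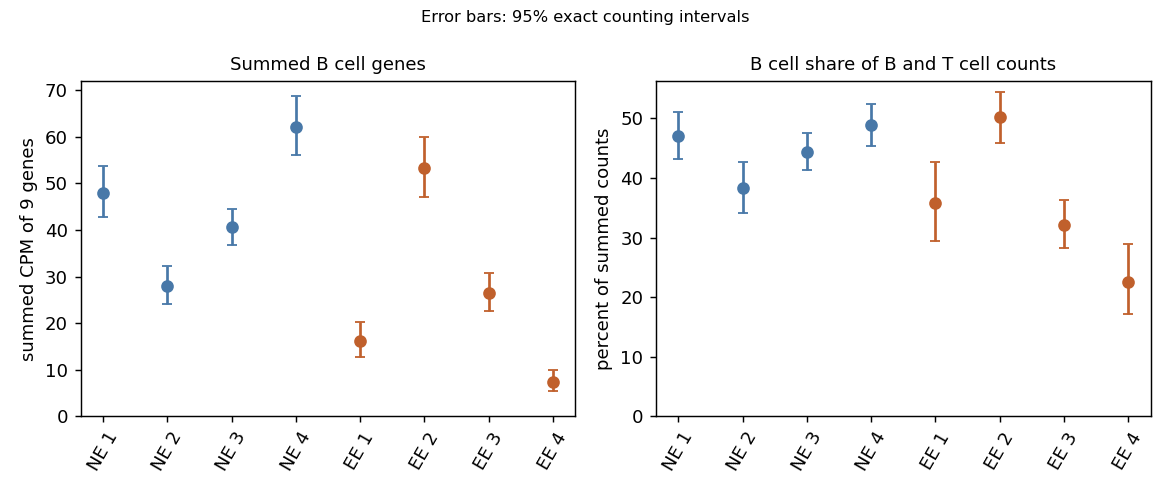
The left panel gives the summed CPM of the 9 B cell genes (y axis) in each library (x axis), and the right panel their percentage of the summed counts of the 9 B cell and 14 T cell genes; NE is blue, EE orange, and bars are 95% exact counting intervals. EE 4 is lowest in both panels, at 7.45 CPM and 22.6%, and EE 2 stands with the NE libraries in both.

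Plasma cell genes, of the cells that B cells become, had 9 of 11 tested genes negative (median −0.56, 0 passed), and 8 of 11 with EE 4 left out (median −0.27). Derl3, of the endoplasmic reticulum, was at 3.97 ± 1.58 CPM across NE and 1.89 ± 0.693 CPM across EE, and Xbp1, which drives secretion in plasma cells and goblet cells, at 324 ± 18.8 and 263 ± 23.9 CPM. Prdm1, which encodes Blimp-1, the repressor of Pax5 in plasma cells that mature epithelium also expresses, was higher in value in EE, at 16.1 ± 3.04 and 22.8 ± 5.11 CPM (log2 fold change 0.50, SE 0.20, edgeR adjusted p = 0.520). The list level, which is the median of the genes' log2 CPM after each was centred on its own mean, was 0.62, −0.16, 0.53 and 0.81 in NE 1 to NE 4 and −0.72, 0.81, −0.04 and −1.83 in EE 1 to EE 4 for the B cell genes. For the plasma cell genes it was 0.62, 0.29, 0.02 and 0.81 in NE and −0.45, 0.12, 0.41 and −2.28 in EE. In EE 2 the B cell level was near that of NE 4, the highest, and the plasma cell level was inside the NE range. In EE 3 the plasma cell level was inside the NE range. The B cell level there was too, although 5 of the 7 genes were each below their own NE range, since the level is a median across genes.

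**Figure D4:**
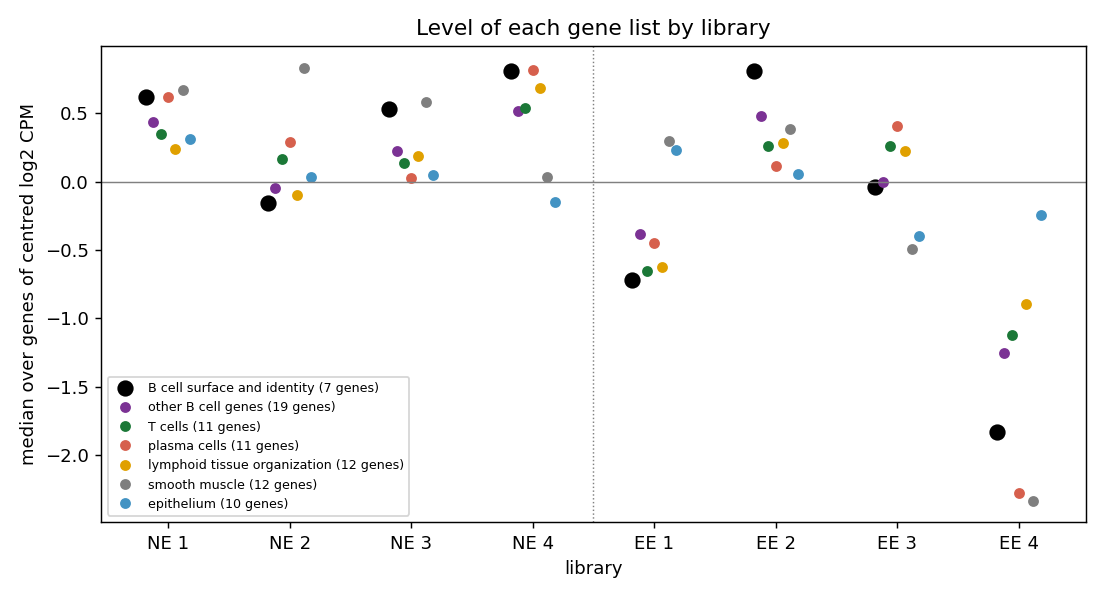
For each library (x axis) the points give the median of a list's centred log2 CPM, each gene set to a mean of 0 across libraries (y axis, log2 units). The B cell genes (large black points) run from 0.81 in NE 4 to −1.83 in EE 4, where smooth muscle stands at −2.33 and epithelium at −0.25.

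Markers of several other cell types were low in EE 4 together with the B cell genes. Smooth muscle genes stood at a list level of −2.33 in EE 4, against −0.49 to 0.83 in the other 7 libraries, with summed levels of 3823 to 6212 CPM across NE and 731 to 4790 CPM across EE. All 12 were negative (median −0.78), with Lmod1 at 42.3 ± 9.19 CPM across NE and 21.9 ± 14.1 CPM across EE, Mylk at 479 ± 112 and 282 ± 144 CPM and Smtn at 69.6 ± 12.5 and 48.4 ± 18.5 CPM. Fat cell genes were at −3.05 in EE 4 (6 of 6 negative, median −0.51), with Plin4 at 23.2 ± 7.20 and 11.2 ± 7.19 CPM. Macrophage genes (10 of 10 negative, median −0.29) were at −1.13 in EE 4 and at 0.65, the highest level, in EE 3, where Mertk nevertheless was lowest at 21.002 CPM. Dendritic cell genes (3 of 4 negative, median −0.28) were at −0.55 in EE 4, with Itgae at 11.6 ± 2.44 CPM across NE and 8.90 ± 1.74 CPM across EE, Flt3 at 2.85 ± 1.18 and 1.95 ± 1.04 CPM and, with the opposite sign, Zbtb46 at 3.497 ± 1.23 and 4.24 ± 1.43 CPM. Lymphatic endothelial genes (3 of 5 negative, median −0.43) were at −1.23, with Flt4 at 12.3 ± 2.92 and 7.67 ± 3.20 CPM, while Prox1, which secretory epithelial cells also express, had the opposite sign at 109 ± 25.8 and 230 ± 108 CPM. Epithelial genes (8 of 10 negative, median −0.13) ran only from −0.40 to 0.31, with Cdx2 at 117 ± 21.5 and 83.6 ± 30.4 CPM, Cldn3 at 454 ± 64.5 and 386 ± 75.2 CPM and, with the opposite sign, Krt18 at 703 ± 78.6 and 828 ± 95.4 CPM. In none of these 6 lists did a gene pass the test. With EE 4 left out the medians were −0.45 for smooth muscle, −0.14 for fat cells, −0.04 for macrophages, −0.06 for dendritic cells, −0.18 for lymphatic endothelium and −0.09 for epithelium. In EE 1 the B cell genes stood at −0.72, with T cells (−0.66), lymphoid tissue organization (−0.62), dendritic cells (−0.52), plasma cells (−0.45), fat cells (−0.45) and macrophages (−0.42) also low, while smooth muscle (0.30), epithelium (0.23) and lymphatic endothelium (0.21) were not. The part of tissue make-up in the difference between the groups was not tested.

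The genes whose pattern over the 8 libraries was most like the mean pattern of the 7 tested B cell genes were named by the root mean square difference of centred log2 CPM, among 14282 genes with a mean of at least 1 CPM. The 10 nearest were Glipr2 (0.25), the anoctamin Ano5 (0.26), the neurotensin gene Nts (0.27), the transcript 5031414D18Rik (0.29), H2-M2 (0.29), the oxysterol hydroxylase gene Cyp7b1 (0.29), the T cell costimulatory receptor gene Cd28 (0.30), the peroxidase gene Gpx8 (0.30), Cxcr5 (0.31) and Cd300ld (0.31). H2-M2, a class I-like gene of the major histocompatibility complex, was at 3.79 CPM across NE and 1.33 CPM across EE (log2 fold change −1.50, SE 0.48, edgeR adjusted p = 0.520). Over the 7 libraries without EE 4, 5 of the 10 stayed among the 10 nearest: Ano5, Glipr2, Cxcr5, Nts and 5031414D18Rik. The libraries share their depth and their tissue make-up across all genes, and nothing about these genes beyond the likeness of their levels was measured.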

How the data were processed

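Counts came from ribosomal RNA-depleted, strand-preserving total RNA libraries read as 50-base single ends, per the labels' protocols. The submitters' processing notes name Novoalign 2.08.01, DESeq 1.14.0 and build mm10. No source used here gives the annotation, the counter or the strand setting. The authors deposited whole-number read counts per gene for 8 libraries, with a log2 fold change and an adjusted p-value (FDR) from their own comparison, per the file headers. The lowest total of a gene over the libraries was 12 counts.

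In edgeR 4.0.16 (R 4.3.3), filterByExpr kept 14311 genes, TMM set the scaling, and a robust quasi-likelihood test without covariates contrasted EE and NE, with Benjamini-Hochberg adjustment over all genes and a threshold of 0.05. CPM follow from the TMM library sizes, with a prior count of 2 on the log2 scale. Library totals of 4735764 to 10586851 counts limit the precision of genes at a few CPM.

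The members and all lists were chosen with earlier results of these data known, so no list is independent support. All 9 genes are named, with up to 3 genes of smallest p in each of 12 lists since none passed, and the 10 genes most like the B cell genes. Some genes that this rule took are not reported here. Ebf1 and the 4 B cell genes of positive sign were named after their values were seen. GENCODE M21 held 15948 of the 16130 identifiers (GRCm38, the same build as mm10). Alternatives were DESeq2 1.42.0, limma-voom (limma 3.58.1), RLE and upper-quartile scaling, other low-count filters, the replicate number as a block, immunoglobulin genes left out, each library left out, a threshold of 0.1, and other summaries of the library level. The tests were tested on simulated data.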

Additional observations from a re-analysis of the deposited data

Results flagged for a closer look

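In 26 groups of 4 libraries examined (each of the 9 genes, their library level and their sums, in NE and in EE), 1 had a value set apart from the rest: Pax5 in EE 4, at 0 CPM, against 0.755 to 0.849 CPM in EE 1 to EE 3. The gap to the nearest library was 0.889 of the group's range, above Dixon's 95% critical value for 4 libraries. Chance marks about 1 in 20 such groups, and these groups are not independent because they share libraries. The EE values rest on 4, 4, 5 and 0 counts, and 0 counts in EE 4 allow a level of up to 0.476 CPM.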

How the results depend on the processing

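The 7 tested B cell genes had a negative log2 fold change and did not pass the test in all 112 values recomputed (7 genes under 16 settings of test, scaling, filter, block and left-out library), and at an adjusted p under 0.1 there were also 0 of them. Their median log2 fold change was −0.79, −1.10 with limma-voom and −0.98 with the replicate number as a block, and ran from −1.46 without EE 2 to −0.42 without EE 4. The number of all genes called was 0 with edgeR, 16 with DESeq2 (lowest adjusted p of a B cell gene 0.259, for Cd22), and 0 to 1 with a library left out, the 1 call being made without EE 2. The EE minus NE difference of the library level of the tested B cell genes was −0.90. It was −0.98 as a mean over genes, −0.80 without Cr2 and Blk and −0.99 with a prior count of 0.5. With a library left out it ran from −1.37 to −0.52. Without EE 4, 5 of the 10 genes most like the B cell genes kept that place. The replicate numbers are not known to pair the samples: same-numbered libraries correlated in their deviations at 0.25, 0.01, −0.18 and −0.04, not every library correlated best with its own number, and the block changed no call. Low counts limit Pax5 and Fcer2a, which entered only the fits without a filter and with DESeq2.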
